A study of Rattus norvegicus with 6 samples.

Results

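This section describes the rat miRNAs whose miRBase names carry a number of 3000 or more, as counted in small RNA libraries of the orbitofrontal cortex. They were taken by name alone, as every row named rno-miR- with such a number, leaving out rno-miR-3541 to rno-miR-3599 and rno-miR-3065. The rule gave 34 names of the 842 rows in the table, of which 676 carried a miRBase name and 166 did not. The libraries came from adult male Sprague Dawley rats, an outbred stock. In 3 animals, controlled cortical impact, a blow by a piston, was delivered on days 1, 4 and 7 with a velocity of 5 m/s and a depth of 2 mm. The other 3 animals had sham surgery on the same days, with no impact. Tissue was dissected on day 42 in both groups, so the comparison addresses what differed weeks after repeated mild injury.

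miRNAs are short RNAs cut from hairpin precursors and loaded into Argonaute proteins, which they guide to messenger RNAs mainly through the seed, bases 2 to 8. miRBase, the registry of miRNAs, gives numbers in the order of submission, so that early numbers hold mostly abundant and conserved miRNAs found by cloning. Late numbers come mostly from deep sequencing and include weakly expressed RNAs, products of introns, of small nucleolar RNAs and of the strand opposite to a known miRNA. For most of the names described here no function in the cortex is established.

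RefSeq, on the rat build GRCr8, gave a mature sequence for 28 of the 34 names. The authors' processing used another build, rn6, so positions below are those of RefSeq and not of the mapped reads. The most abundant names are shown first, with the seed in capitals, because most of the reads described below carried them.
miR-3068-3p: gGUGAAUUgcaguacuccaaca
miR-3068-5p: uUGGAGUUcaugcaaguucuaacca
miR-6331: cUUUGGUGgcuuaguucuuugugc
miR-6329: aAUGUGACucagcuaucugaaca
miR-3099: uAGGCUAGaaagagguugggga
miR-3074: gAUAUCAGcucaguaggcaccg
miR-6321: uACUGCAGugaguucuaugaagc

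The matched names shared no seed with any other row of the table that had a sequence. They gave 29 sequences, since miR-3084a-5p has a pair of them, and these held 29 distinct seeds. Among 586 sequences of the other named rows, 158 or 27.0% shared their seed with another row. Mature lengths were 20 to 25 bases with a median of 22, the same median as in the other named rows. The first base was U, the base most often found at the start of Argonaute-loaded miRNAs, in 13 sequences or 44.8%, against 212 or 36.2% of the others. Median GC content was 52.4% for the late-numbered names and 47.6% for the others.

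Both arms of miR-3068 come from a hairpin that RefSeq lists under the symbol Snora58 with Mir3068 as a synonym. Snora58 is a name of the H/ACA class of small nucleolar RNAs, which guide the conversion of uridine to pseudouridine. The hairpin lies at chr6:112811875-112811950 on the minus strand (GRCr8), within Alkbh1, a demethylase gene on the same strand. It is shown with the 5p and the 3p sequence in capitals, because together they held 69.9% of all reads described here.
miR-3068 hairpin: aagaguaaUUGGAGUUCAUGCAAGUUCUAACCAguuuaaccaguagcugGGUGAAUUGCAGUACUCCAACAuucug

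The miR-6321 hairpin holds its mature sequence as part of a tandem repeat. It lies at chr14:19743376-19743516 on the minus strand (GRCr8), within Rufy3, a gene for a cytoplasmic adaptor of neurons, on the same strand. A run of 50 bases recurs 49 bases further on with 1 difference, so a near-copy of the mature sequence follows the first. Counted from 1 at the 5′ end of the mature sequence, the difference is C3U, which lies within the seed. The whole hairpin is shown with the listed mature sequence in capitals, and the near-copy after it is in lower case. It is given because miR-6321 had the widest differences between libraries.
miR-6321 hairpin: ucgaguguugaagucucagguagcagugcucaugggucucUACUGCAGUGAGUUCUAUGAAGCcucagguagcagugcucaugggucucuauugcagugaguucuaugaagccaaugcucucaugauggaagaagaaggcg

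Hairpins of the late-numbered names were predicted to fold less stably than the others, by the median over names with a RefSeq hairpin that held the mature sequence. Both arms of a hairpin entered as separate names. The minimum free energy from RNAfold had a median of -37.7 kcal/mol per 100 bases over 25 names, against -43.4 over 537 other named rows. It was weaker than -30 in 4 names or 16%, namely miR-3084a-3p, miR-3084a-5p, miR-7578 and miR-6331, against 23 names or 4.28% of the others. For miR-3084a this was the Mir3084a-4 hairpin, at -27.7, and the Mir3084a hairpin had -31.6. The strongest was miR-6216 at -64.4, and miR-6329 had -56.2. miR-6321 had -32.8. Of the mature bases, a median of 80.0% were paired, against 85.0% in the others. The RefSeq hairpins include flanks of different lengths, and these values are predictions that no library measured.

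Of the 29 genes that RefSeq lists for 33 of the names, 20 lie within a protein-coding gene, counted without regard to strand. The share among genes of the other named rows was not counted. miR-3064 lies within Ddx5, an RNA helicase that takes part in miRNA processing, on the same strand. miR-6329 lies within Rdx, which encodes the actin linker radixin, on the opposite strand. miR-6315 lies within Vps51, a gene of a vesicle tethering complex, and miR-6319 within Exoc2, a gene of the exocyst. miR-6331 and miR-3072 lie in the same long noncoding RNA gene of chromosome 6, in the imprinted cluster of brain-expressed miRNAs. miR-381 and miR-485 are among the close neighbours of miR-6331, and miR-409 and miR-410 among those of miR-3072. miR-3084a has an entry within Sf3b3, a splicing factor gene, and another where Klhdc2 and Nemf overlap.

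The libraries held 17244114 to 22311086 counted reads in injured and 12538288 to 23680840 in sham animals. Levels are given below as CPM, the usual library-scaled read count, with TMM factors, a scaling that corrects for differences in composition. CPM was not divided by length, which differs little between mature miRNAs, and library preparation can favour some sequences, so levels of different names are approximate. The libraries carried miRNAs typical of brain: neural miR-9a-5p had 182298 to 225522 CPM and neuronal miR-124-3p 4012 to 6024 CPM. miR-122-5p, typical of liver, had 0.838 to 27.0 CPM. Red-cell miR-451-5p had 18.6, 34.6 and 23.4 CPM in injured and 43.2, 79.0 and 47.7 CPM in sham replicates 1 to 3. Its groups did not overlap. Its log2 fold change of injured over sham, -1.15 ± 0.32 (SE), did not pass (adjusted p = 0.878, edgeR). Epithelial miR-200 miRNAs differed widely, at 7.68, 1715 and 124.5 CPM in injured replicates 1 to 3 and 3528, 48.0 and 197.3 CPM in sham replicates 1 to 3. Since the tissue is a mixture of cells, fewer cells of a type and less of an RNA per cell cannot be told apart. Replicate numbers only name libraries and pair nothing.

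Late-numbered names were scarce in the orbitofrontal cortex, and a handful of them held nearly all of the reads. They took 0.0559% ± 0.0081 of reads in injured and 0.0597% ± 0.0109 in sham animals (SD, n = 3 each). Shares ranged from 0.0473% to 0.0635% in the 3 injured and from 0.0491% to 0.0709% in the 3 sham libraries, so the groups overlapped. The 5 most abundant names held 90.0% of the 68536 reads over all libraries. The median of the names' mean levels was 1.10 CPM, against 13.3 CPM for the 642 other named rows. Means were above 100 CPM for 2 names, above 10 CPM for 6 and below 1 CPM for 16.

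**Figure D1:**
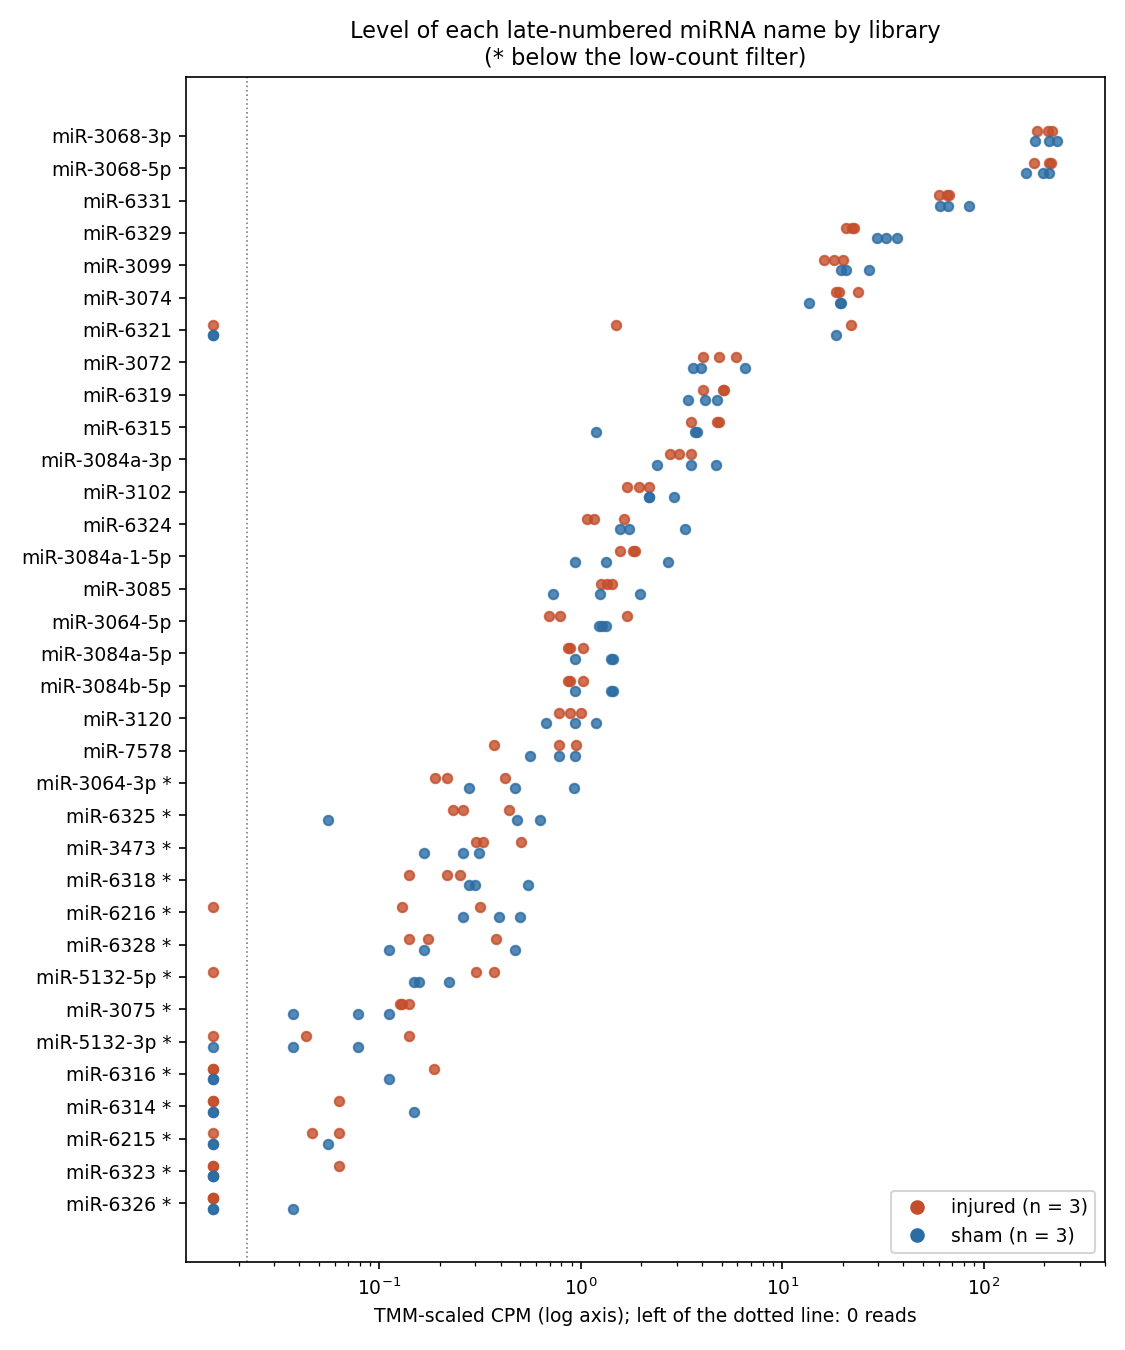
TMM-scaled CPM on a log axis of each late-numbered name, from the highest mean at the top to the lowest, with 1 point per library (injured in orange-red above sham in blue, n = 3 each). Points left of the dotted line are libraries with 0 reads, and an asterisk marks names below the low-count filter. miR-3068 stands highest, at 161.7 to 232.4 CPM, while miR-6321 is at 0 in 3 libraries and between 1.49 and 22.1 CPM in the other 3.

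The arms of miR-3068 were by far the most abundant. miR-3068-3p had 218.0, 184.0 and 210.0 CPM in injured replicates 1 to 3 and 210.5, 181.2 and 232.4 CPM in sham replicates 1 to 3. miR-3068-5p had 215.4, 179.0 and 212.1 CPM in injured and 210.9, 161.7 and 198.0 CPM in sham replicates 1 to 3. The groups overlapped for both arms, and the library lowest within each group was the same for both, injured replicate 2 and sham replicate 2. Log2 fold changes of injured over sham were -0.03 ± 0.17 for miR-3068-3p and 0.09 ± 0.17 for miR-3068-5p (SE), and the sign of the first was positive with upper-quartile scaling.

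Those arms were nearly equal in every library, unlike most hairpins, where a single arm is retained. The ratio of 5p to 3p reads was 0.988, 0.973 and 1.01 in injured replicates 1 to 3 and 1.00, 0.892 and 0.852 in sham replicates 1 to 3. By the size of the mean log2 ratio, miR-3068 was the third most balanced of 153 hairpins with at least 10 reads per arm on average (position 3). The median over those hairpins was a log2 ratio of 4.13 in size. Injured and sham animals differed by 0.12 in log2 ratio (95% interval -0.39 to 0.62), which did not pass (adjusted p = 0.894, limma).

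The other hairpins listed with both arms had far fewer reads. For miR-3084a the arm ratio depended on which 5p rows were taken, since miR-3084a-5p and miR-3084a-1-5p are both listed for it. With miR-3084a-5p alone, the ratio of 5p to 3p was 0.294, 0.326 and 0.287 in injured and 0.275, 0.609 and 0.304 in sham replicates 1 to 3. The groups overlapped, and sham replicate 2 stood apart at 0.609. The difference in log2 ratio was -0.30 (95% interval -1.03 to 0.44), with an adjusted p of 0.845 from limma, and its sign was positive without sham replicate 2. With both 5p rows summed, the ratio was 0.804, 0.888 and 0.888 in injured and 0.538, 1.16 and 0.881 in sham replicates 1 to 3, so the 5p exceeded the 3p in sham replicate 2. The difference in log2 ratio was then positive, at 0.067 (95% interval -0.63 to 0.76, adjusted p = 0.986, limma). No hairpin of the 153 was called for arm usage (0%), with a smallest adjusted p of 0.845. miR-3064-5p and miR-3064-3p had 17 and 9 reads in injured replicate 1, 27 and 3 in replicate 2 and 16 and 5 in replicate 3. In sham replicates 1 to 3 they had 17 and 6, 23 and 5, and 33 and 25 reads. miR-5132 had at most 8 reads of the 5p and 3 of the 3p arm in any library.

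miR-6331, from the imprinted cluster of chromosome 6, had 65.9, 60.1 and 67.5 CPM in injured and 60.7, 84.3 and 67.0 CPM in sham replicates 1 to 3. The groups overlapped, with sham replicate 2 above the rest, and the log2 fold change was -0.13 ± 0.17 (SE). miR-3072, from the same cluster, had 4.84, 4.03 and 5.90 CPM in injured and 3.60, 3.95 and 6.51 CPM in sham replicates 1 to 3. Its highest library was a sham one, and its log2 fold change was 0.07 ± 0.30. miR-3099, a miRNA studied in mouse brain development, had 18.2, 16.2 and 20.2 CPM in injured and 20.7, 19.6 and 27.0 CPM in sham replicates 1 to 3. Its groups met between 19.6 and 20.2 CPM, and its log2 fold change was -0.30 ± 0.20.

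miR-3074 and miR-3120 are each written on the strand opposite to a well-known miRNA gene. miR-3074 lies at chr17:1818712-1818733 on the plus strand (GRCr8), and Mir24-1, a gene of the miR-23b, miR-27b and miR-24-1 cluster, lies across it on the minus strand. The sequences of miR-3074 and miR-24-1-5p are the reverse complement of each other over 20 of their 22 bases, shown in capitals.
miR-3074: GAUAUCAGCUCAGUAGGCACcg
miR-24-1-5p: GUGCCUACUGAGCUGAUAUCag

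miR-3074 followed the counts of miR-24-1-5p closely in every library. miR-3074 had 413, 379 and 428 reads in injured and 251, 346 and 365 reads in sham replicates 1 to 3. miR-24-1-5p had 469, 430 and 461 reads in injured and 273, 404 and 410 in sham replicates 1 to 3. The ratio of miR-3074 to miR-24-1-5p was 0.856 to 0.928 in all 6 libraries, with a coefficient of variation of 3.0%. Independent counting of names with these reads would alone give 6.71% to 8.74%. Whether the authors' counting used strand is not given in the sources used here, so reads of miR-3074 and miR-24-1-5p cannot be told apart. Levels and fold changes of these names therefore cannot be taken as separate measurements.

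The level of miR-3074 did not differ detectably between groups. It had 19.2, 23.9 and 18.6 CPM in injured and 19.6, 19.3 and 13.6 CPM in sham replicates 1 to 3. The groups overlapped, and sham replicate 3 was lowest. Its log2 fold change was 0.23 ± 0.22 (SE), beside 0.22 ± 0.22 for miR-24-1-5p and 0.21 ± 0.14 for miR-24-3p, the main product of that gene and of Mir24-2.

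**Figure D2:**
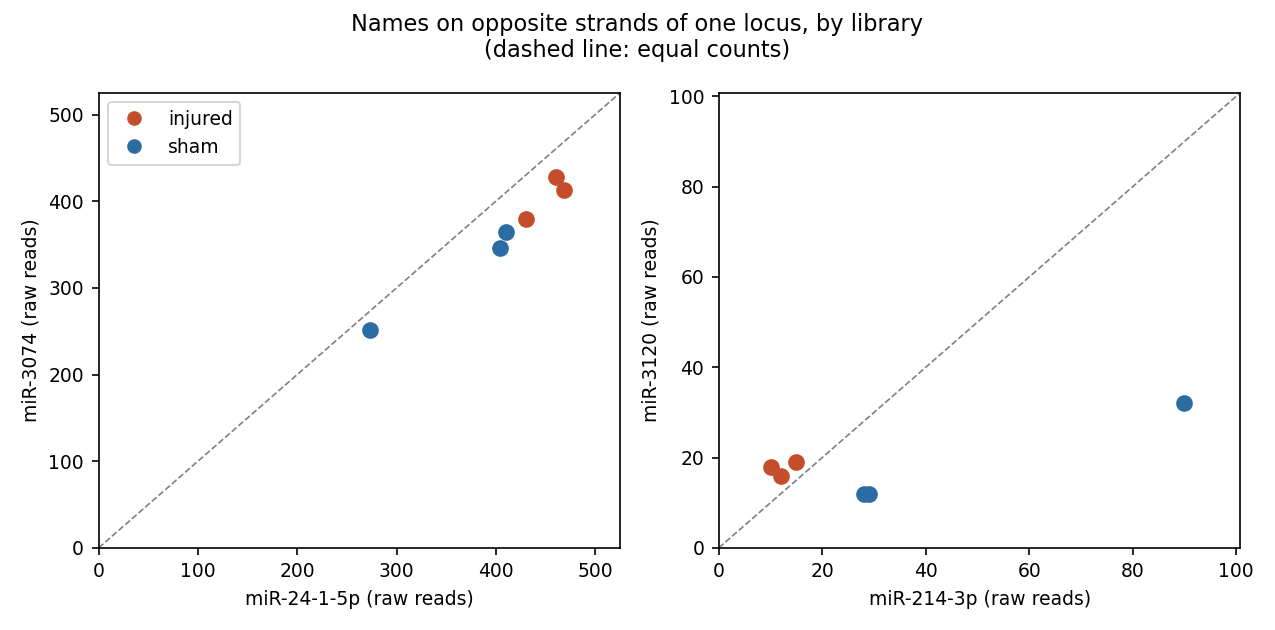
Raw reads of miR-3074 against miR-24-1-5p (left) and of miR-3120 against miR-214-3p (right), with 1 point per library (injured in orange-red, sham in blue, n = 3 each) and a dashed line of equal counts. The points on the left lie just below that line, at ratios of 0.856 to 0.928, while on the right the injured libraries lie above it and the sham libraries below. The names on the left are reverse complements over most of their length, and those on the right are not.

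miR-3120 lies at chr13:77121672-77121692 on the minus strand (GRCr8), within Dnm3, the gene of the vesicle protein dynamin 3. The reverse complement of its whole sequence lies in the hairpin of Mir214, at bases 28 to 48, in the arm other than that of miR-214-3p. The miR-214 hairpin is shown with those bases in capitals.
miR-3120: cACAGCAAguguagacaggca
miR-214 hairpin: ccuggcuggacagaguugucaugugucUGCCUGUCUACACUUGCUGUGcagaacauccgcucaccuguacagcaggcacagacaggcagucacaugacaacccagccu

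miR-3120 did not keep a fixed ratio to miR-214-3p, which is not its reverse complement, so this pair is unlike that of miR-3074. miR-3120 had 19, 16 and 18 reads in injured and 12, 12 and 32 reads in sham replicates 1 to 3. miR-214-3p, typical of mesenchymal cells, had 15, 12 and 10 reads in injured and 29, 28 and 90 reads in sham replicates 1 to 3. The ratio of miR-3120 to miR-214-3p was 1.27, 1.33 and 1.80 in injured and 0.414, 0.429 and 0.356 in sham replicates 1 to 3. The ratios of the groups did not overlap, a description made after the values were seen and not tested. How many other pairs of rows separate in this way was not counted. The log2 fold change of miR-3120 was -0.09 ± 0.33 (SE), beside -1.94 ± 0.39 for miR-214-3p, and neither passed. The adjusted p of miR-214-3p, 0.813 from edgeR, was the smallest over all rows tested.

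miR-6321 was present in some animals and had no read in others, in both groups. It had 32, 0 and 509 reads in injured replicates 1 to 3 and 0, 0 and 496 reads in sham replicates 1 to 3. These are 1.49, 0 and 22.1 CPM in injured and 0, 0 and 18.4 CPM in sham animals. At the depth of those libraries, a count of 0 allows up to 0.189 CPM in injured replicate 2 and up to 0.235 and 0.167 CPM in sham replicates 1 and 2, counting error only. Only 2 of the 842 rows had 0 reads in some library and at least 100 in another, miR-6321 and miR-292-5p, and miR-292-5p was at 0 in a single library.

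The libraries with reads of miR-6321 belonged to both groups, and the groups overlapped fully. Its log2 fold change of 0.33 had a 95% interval from -4.59 to 5.26 (adjusted p = 0.976, edgeR). The sign turned without injured replicate 3 (log2 fold change -2.96), without sham replicate 1 (-0.18) and without sham replicate 2 (-0.18). Without sham replicate 3, both sham libraries left had 0 reads, so the value of 10.17 is set by the prior count. Summed miR-200 levels were 7.68, 124.5 and 197.3 CPM in the libraries with miR-6321 reads and 1715, 3528 and 48.0 CPM in those without, and their part in the result was not tested.

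**Figure D3:**
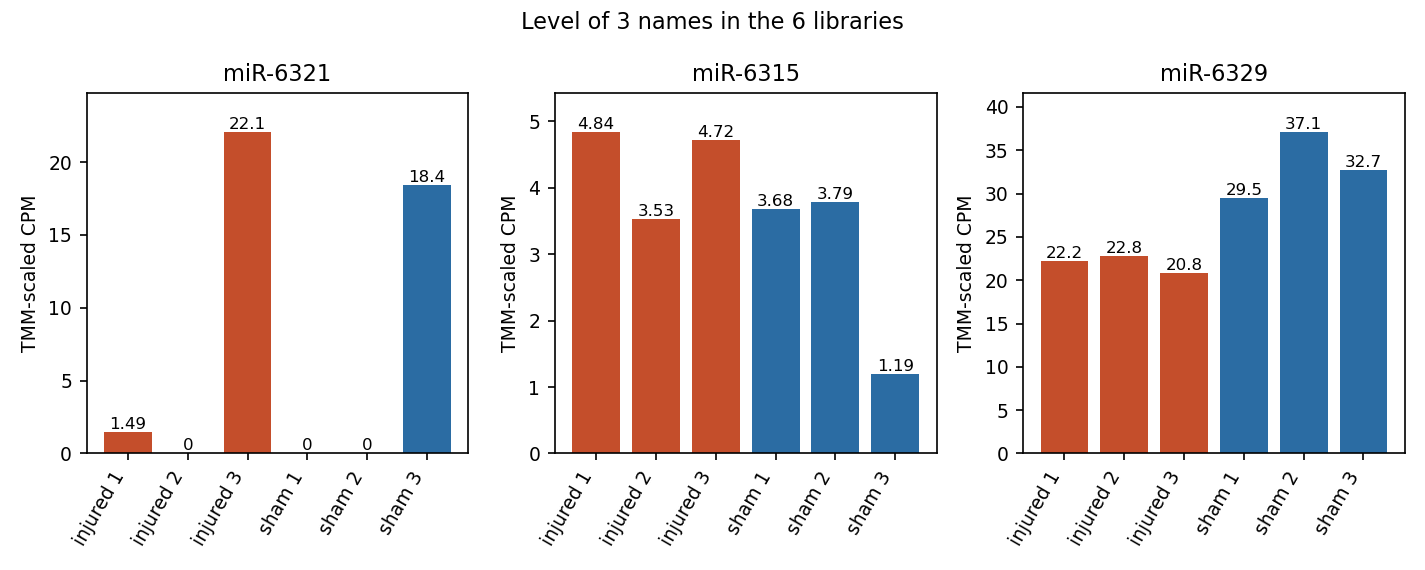
TMM-scaled CPM of miR-6321, miR-6315 and miR-6329 in each library, as bars from 0 with the value above each bar (injured replicates 1 to 3 in orange-red, sham replicates 1 to 3 in blue). miR-6321 is high in 1 library of each group, miR-6315 is lowest in sham replicate 3 at 1.19 CPM, and miR-6329 lies between 20.8 and 22.8 CPM in injured and between 29.5 and 37.1 CPM in sham libraries.

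Among the 20 tested names, miR-6329 was the 1 whose groups did not overlap. It had 22.2, 22.8 and 20.8 CPM in injured and 29.5, 37.1 and 32.7 CPM in sham replicates 1 to 3. Every injured library lay below every sham library. The mean was 21.96 ± 1.0 CPM in injured and 33.1 ± 3.82 CPM in sham animals (SD, n = 3 each). On the log2 scale injured animals were lower by a fold change of -0.59 (95% interval -0.98 to -0.20). It did not pass the test over the whole table (adjusted p = 0.878, edgeR). Red-cell miR-451-5p was also lower in every injured library than in every sham library, and its part in the result for miR-6329 was not tested. Among all tested rows, 26 or 4.87% had all injured libraries below all sham libraries, and 16 or 3% had them above. Of the 20 tested late-numbered names, 1 lay below in this way and 0 above.

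Of the 34 names, 20 passed the low-count filter, or 58.8%, against 489 of the 642 other named rows, or 76.2%. With edgeR's quasi-likelihood test and adjustment over all 534 rows tested, 0 of the 20 were called, beside 0 of 534 (0%). The smallest adjusted p among the late-numbered names was 0.878. At an unadjusted p under 0.05 there was 1 of the 20, miR-6329, beside 12 of the 534 (2.25%). With upper-quartile scaling there were 0 of the 20, beside 9 of the 534. DESeq2 and limma on log2(TPM + 1) also called 0 of the 534, with 19 and 12 rows at an unadjusted p under 0.05. The median log2 fold change of the 20 was -0.09, beside -0.03 over all 534.

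By sign, 12 of the 20 names had a negative and 8 a positive log2 fold change, beside 290 and 244 of all rows tested. The split depended on the scaling, with 8 negative and 12 positive under upper-quartile factors and 15 negative and 5 positive under library totals. Across scalings, the median over all tested rows moved by up to 0.15 on the log2 scale. The 95% intervals reached a median of 0.70 log2 units to either side, beside 0.56 over all rows tested, and 19 of the 20 included 0. The 13 tested names whose number begins with 3 had a median of -0.09 (8 negative, 5 positive), and the 6 whose number begins with 6 had 0.04 (3 negative, 3 positive).

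**Figure D4:**
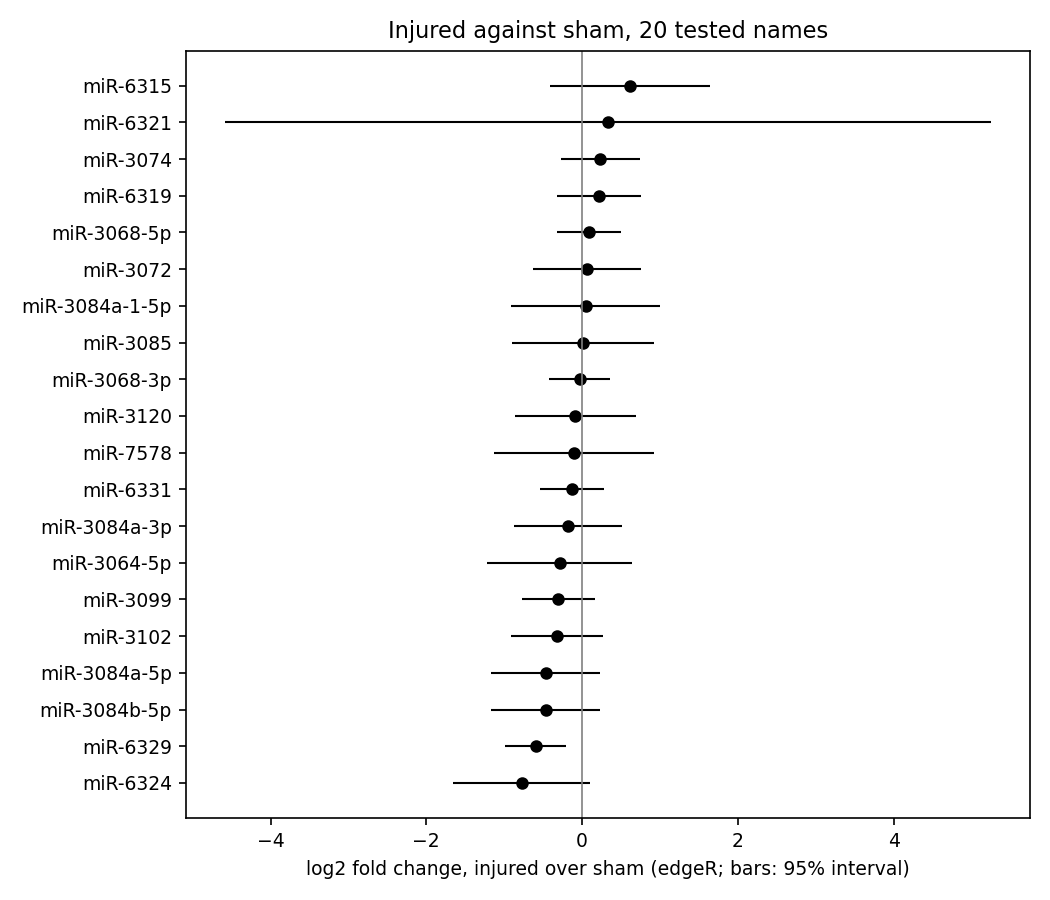
Log2 fold change of injured over sham from edgeR for the 20 late-numbered names that passed the low-count filter, with the 95% interval as a bar and a grey line at 0. The interval of miR-6329 lies below 0, from -0.98 to -0.20, and that of miR-6321 runs from -4.59 to 5.26.

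Other tested names with the smallest unadjusted p were miR-6324, miR-3084a-5p, miR-3084b-5p, miR-3099, miR-6315, miR-3102 and miR-3074. miR-6324, from within Brwd1, a chromatin reader gene, had 1.16, 1.07 and 1.65 CPM in injured and 1.56, 1.73 and 3.31 CPM in sham replicates 1 to 3. The groups overlapped between 1.56 and 1.65 CPM, and sham replicate 3 stood above the rest. Its log2 fold change was -0.78 ± 0.38 (SE) with all libraries and -0.34 without sham replicate 3. miR-6315 had 4.84, 3.53 and 4.72 CPM in injured and 3.68, 3.79 and 1.19 CPM in sham replicates 1 to 3. Sham replicate 3 was the lowest library. The log2 fold change was 0.61 ± 0.44 with all libraries and 0.23 without that one. miR-3102 had 2.19, 1.95 and 1.69 CPM in injured and 2.19, 2.17 and 2.90 CPM in sham replicates 1 to 3, with overlapping groups and a log2 fold change of -0.32 ± 0.25.

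The names of the miR-3084 group could not all be told apart. miR-3084a-5p and miR-3084b-5p had identical counts in every library and count as 1 measurement, so that the 20 tested names hold 19 distinct ones. They had 22, 14 and 20 reads in injured and 12, 26 and 38 in sham replicates 1 to 3. RefSeq gives miR-3084a-5p in 2 versions, 1 per gene, shown because they differ at the 5′ end and so in the seed.
miR-3084a-5p, Mir3084a: uUGAAGGUucauuagcagagua
miR-3084a-5p, Mir3084a-4: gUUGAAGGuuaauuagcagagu

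The shared 5p counts gave a log2 fold change of -0.47 ± 0.30 (SE), and the groups overlapped. miR-3084a-1-5p had 39, 25 and 43 reads in injured and 12, 24 and 73 reads in sham replicates 1 to 3, with a log2 fold change of 0.04 ± 0.41. miR-3084a-3p had 76, 44 and 71 reads in injured and 45, 43 and 126 in sham replicates 1 to 3, with -0.18 ± 0.29. For miR-3084a-1-5p and miR-3084a-3p, sham replicate 3 was highest and the injured libraries lay within the range of the sham ones. RefSeq also lists miR-3084d, under Snora19, with the same sequence as miR-3084a-3p.

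Tested names not yet described overlapped between the groups. miR-6319 had 5.12, 4.03 and 5.11 CPM in injured and 4.15, 4.73 and 3.42 CPM in sham replicates 1 to 3, a log2 fold change of 0.22 ± 0.23 (SE). miR-3085 had 1.35, 1.26 and 1.43 CPM in injured and 1.25, 0.724 and 1.97 CPM in sham replicates 1 to 3, a log2 fold change of 0.02 ± 0.39. The sham libraries of miR-3085 spanned a wider range than the injured ones. miR-3064-5p had a log2 fold change of -0.29 ± 0.40. miR-7578, from within Brd3, had 8, 15 and 18 reads in injured and 12, 14 and 15 in sham replicates 1 to 3, the lowest total of a tested name at 82 reads, and a log2 fold change of -0.10 ± 0.44.

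The 14 names below the filter had at most 25 reads in any library, and no fold change is given for them. miR-3064-3p came closest to passing, with 53 reads in all, of which sham replicate 3 held 25. Next were miR-6325, with 5, 7 and 6 reads in injured and 8, 1 and 13 in sham replicates 1 to 3, and miR-3473, with 3 to 8 reads in each library. miR-6318 had 3, 4 and 5 reads in injured and 7, 5 and 8 in sham replicates 1 to 3, and miR-3075 had 3, 2 and 3 in injured and 1, 2 and 1 in sham replicates 1 to 3. In CPM the groups of miR-6318 (injured lower) and of miR-3075 (injured higher) did not overlap, at counts below the filter and not tested. The share of all rows below the filter that separate in this way was not counted. Counts of miR-6318 also lay within 2 reads of those of miR-16-3p in every library, which at counts this low does not show shared reads. miR-6328 had 3 to 6 reads in each library. miR-6216 had 0 to 9 reads, miR-5132-5p 0 to 8 and miR-5132-3p 0 to 3. miR-6316, whose hairpin holds its mature sequence at 2 places, had 4 reads in injured replicate 1 and 3 in sham replicate 3. miR-6314 had 1 read in injured replicate 2 and 4 in sham replicate 3. miR-6215 had 1 read in each of 3 libraries, and miR-6323 and miR-6326 had 1 read in all.

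Spread between libraries was similar to that of other rows for most tested names. The SD of log2 CPM within groups had a median of 0.27 over the 20, beside 0.29 over all 534 rows tested, and 11 of the 20 lay below that 0.29. It was smallest for miR-6329 at 0.13, miR-3068-3p at 0.16 and miR-3068-5p at 0.18. It was largest for miR-6321 at 4.12, first among all 534 rows, then for miR-6315 at 0.66 and miR-3084a-1-5p at 0.53. Without miR-6321, the highest library exceeded the lowest by 1.28-fold for miR-3068-3p up to 4.07-fold for miR-6315, with a median of 1.78-fold. Counting alone gives a coefficient of variation of 1.56% for miR-3068-3p and 27.1% for miR-7578.

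edgeR's biological coefficient of variation, which allows for counting error, was 25.9% to 40.8% for the other 19 tested names and 217% for miR-6321. Each value is drawn toward the trend over all rows, so it is not the spread of that name alone. The trend at the abundance of the 20 names was 36.4% to 40.2%, and only miR-6321 and miR-6315 lay above it. That is 10% of the 20, beside 53 or 9.93% of all 534 rows tested. Late-numbered names were highest in sham replicate 3 more often than in any other library. That library held the highest CPM of 9 of the 20, or 45%, and of 140 of all 534 rows tested, or 26.2%. Sham replicate 1 held the highest of 0 of the 20, and of 69 or 12.9% of all. No test was made of these counts, and names with shared reads are among them.

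**Figure D5:**
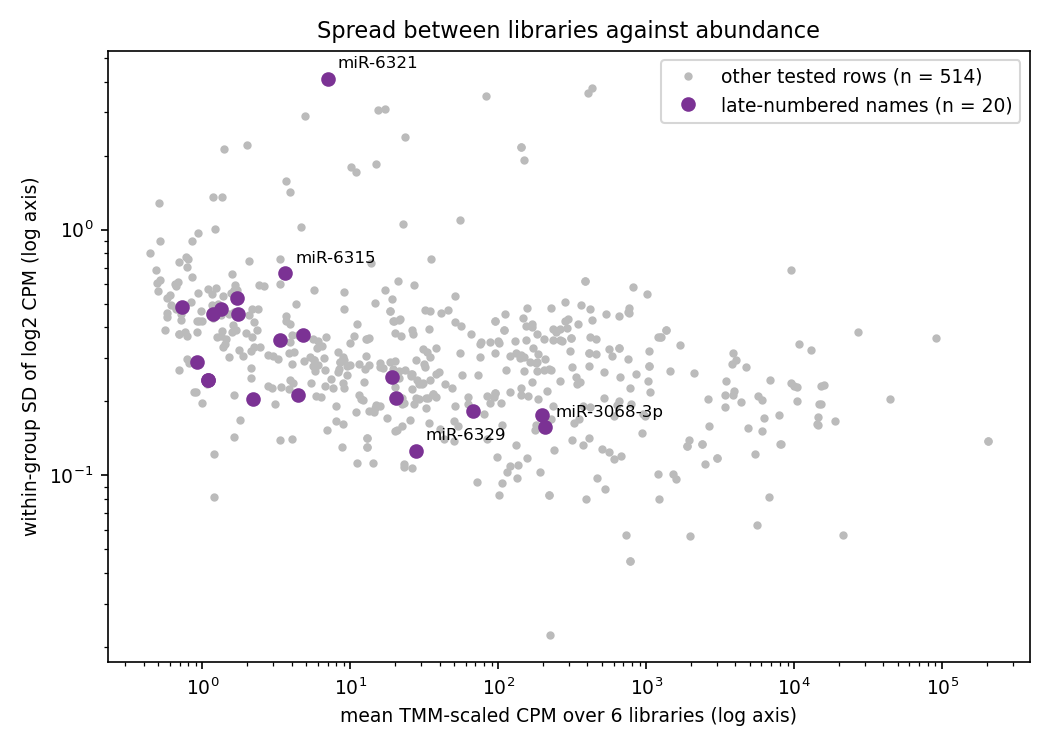
Within-group SD of log2 CPM against mean TMM-scaled CPM over the 6 libraries, both on log axes, with 1 point per tested row (late-numbered names in purple, n = 20, and other rows in grey, n = 514). Most purple points lie among the grey ones, from 0.13 for miR-6329 to 0.66 for miR-6315, and miR-6321 stands at 4.12.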

How the data were processed

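Per the labels' protocols, small RNA libraries were prepared from total RNA of each animal with a NEBNext kit, followed by size selection on a gel. The submitters' processing notes name Bowtie and rn6. For the read counter, its use of strand and the annotation release, versions and settings were not given in the sources used here. A single table was deposited by the authors, with raw read counts and TPM values per library, per the file headers. The deposited TPM values have no length term and entered only as alternatives.

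Counts were tested with edgeR 4.0.16 in R 4.3.3 (TMM, filterByExpr with minimum count 10 and minimum total 15, quasi-likelihood F-test, Benjamini-Hochberg over all 534 rows tested, called at 0.05). The SE is the absolute log2 fold change over the square root of F, and intervals are at 95%. Spread was taken from log2 CPM with a prior count of 2. Arm ratios used limma 3.58.1 with a pseudocount of 0.5, over hairpins with a mean of at least 10 reads per arm. Sequences come from RefSeq (GRCr8), and hairpins were folded with RNAfold 2.7.2. Procedures were tested on simulated counts. All 15 pairs of libraries differed by more than counting error, with a smallest chi-square of 172 per degree of freedom, and each library entered as its own sample.

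The members and lists were chosen with earlier results of these data known. The rule for named miRNAs took the 8 most abundant, the 8 with the smallest p, both arms of a hairpin, the extremes of spread, names with shared counts, opposite-strand pairs and those beside the filter. All 34 names are accounted for. Alternatives covered scaling, filter, test (DESeq2 1.42.0), TPM pseudocounts of 1 and 0.1, prior counts, arm minimums, rows with nearly equal counts, and each library left out. Groups follow the treatment label.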

Additional observations from a re-analysis of the deposited data

How the results depend on the processing

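No late-numbered name was called in the main fit or under any of the 15 alternatives. Leaving out sham replicate 1 and injured replicate 2 together, the libraries highest in miR-200, an alternative chosen after seeing the data, called 1 row of the whole table, miR-293-5p, which is none of these names. Of 299 values of the 20 tested names, 271 kept their direction and 28 turned, in 9 names, and the cause was not tested. With upper-quartile scaling the log2 fold change was 0.12 for miR-3068-3p, 0.060 for miR-3120, 0.018 for miR-6331 and 0.066 for miR-7578. With library totals it was -0.017 for miR-3072, -0.054 for miR-3084a-1-5p and -0.087 for miR-3085. For miR-3068-3p it was 0.0029 with RLE scaling and 0.0029 with DESeq2. Without that pair of libraries it was 0.075 for miR-3068-3p and -0.12 for miR-3084a-1-5p. Leaving out 1 library at a time gave -0.076 to 0.064 for miR-3068-3p, -0.050 to 0.38 for miR-3072, -0.18 to 0.61 for miR-3084a-1-5p, -0.35 to 0.088 for miR-3084a-3p, -0.23 to 0.47 for miR-3085, -0.23 to 0.15 for miR-3120, -2.96 to 10.17 for miR-6321 (the upper value is set by the prior count, since both sham libraries left had 0 reads), -0.20 to 0.057 for miR-6331 and -0.34 to 0.21 for miR-7578. The difference in the miR-3084a arm ratio was -0.51 to 0.062, and 0.067 with both its 5p rows summed, also chosen after seeing the data. miR-6329 kept a negative value throughout, from -0.67 to -0.45, but with upper-quartile scaling its unadjusted p from edgeR was not under 0.05. With only named rows and 1 row per pair of nearly equal counts, the share of reads was 0.0717% in injured and 0.0776% in sham animals, as fewer rows make up the total. The median spread stayed between 0.22 and 0.35. No paired analysis was possible because the labels number no replicates. Below about 10 reads per library, depth sets what can be read.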
